A study of Mus musculus with 4 samples.

Results

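The major histocompatibility complex (MHC) class I pathway was followed through 9 genes in mouse brain tissue holding thalamus and hypothalamus at postnatal day 14. The genes are the heavy chains H2-K1, H2-D1, H2-T23 and H2-M3, the light chain B2m, the peptide transporter subunits Tap1 and Tap2, the loading chaperone Tapbp and the receptor Pirb. They were picked as genes tied to synapse refinement in the visual thalamus, by name and not by a threshold on the values. All 9, of 18350 genes with a named probe, were found on the array through the RefSeq accessions of its probes, with 16 of 41174 probes, and 8 of the 9 entered the test among 21420 genes. Tap1 stayed out because no array had its only probe well above background.

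The study set 2 dark-reared samples, here DR1 and DR2, beside 2 control samples, C1 and C2, with a one-colour Agilent array for each. In the dark-reared group darkness began 1 to 4 days before birth, when the dam's cage was wrapped in black plastic, and lasted until sampling with care given under dim red light. Controls were housed under 12 h of light and 12 h of dark. The labels give neither strain, sex, genotype nor the number of animals behind a sample, and call the samples biological replicates. Where they are not separate animals, the p-values measure a spread that may be technical. Within each group Xist was well above background in 1 sample and not in the other, as given below. Values are log2 signals minus the 75th percentile of the same array, and a value of one probe is not set against that of another.

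Class I heavy chains carry peptides to the cell surface together with the light chain B2m. Peptides made by the proteasome are pumped into the endoplasmic reticulum by the transporter of Tap1 and Tap2, and tapasin, the product of Tapbp, holds empty class I molecules beside it until they are loaded. In T cell immunity these complexes report on the contents of a cell. Neurons of the developing visual system also express class I genes, and mice lacking H2-K1 and H2-D1, B2m with Tap1, or Pirb have been used to study the refinement and plasticity of visual connections. Vessels, microglia and blood leukocytes also express class I genes, so these whole-tissue values cannot be assigned to neurons, and fewer cells of a type and less RNA per cell cannot be told apart.

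The array files hold no probe sequences, so the genes are shown by their promoters, from a RefSeq table of assembly GRCm38.p6. The table covers 250 bases before and 50 bases after the most upstream start of a gene and had an entry for 8 of the 9 genes, the exception being Tap2. H2-K1, H2-D1, H2-M3 and B2m are shown because textbook class I control elements can be read in them. Pirb is shown because it lies outside the complex and stood apart in the values. The windows are chr17:34000298-34000597 on the minus strand for H2-K1, chr17:35262844-35263143 on the plus strand for H2-D1, chr17:37269984-37270283 on the plus strand for H2-M3, chr2:122147437-122147736 on the plus strand for B2m and chr7:3720333-3720632 on the minus strand for Pirb. Capitals mark matches on either strand to 5 motifs. These were a kappaB-type motif (GGNNNTTCC), an interferon-stimulated response element or ISRE (TTTCNNTTT), its form in class I heavy chain genes (TTTCACTTC), the core of the X2 box (TGACG) and the Y box (ATTGG).
H2-K1: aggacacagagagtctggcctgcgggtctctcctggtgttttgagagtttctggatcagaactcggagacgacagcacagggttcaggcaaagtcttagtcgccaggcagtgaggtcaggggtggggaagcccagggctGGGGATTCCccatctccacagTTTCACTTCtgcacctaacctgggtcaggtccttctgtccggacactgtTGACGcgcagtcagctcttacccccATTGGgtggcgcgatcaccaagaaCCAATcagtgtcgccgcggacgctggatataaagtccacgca
H2-D1: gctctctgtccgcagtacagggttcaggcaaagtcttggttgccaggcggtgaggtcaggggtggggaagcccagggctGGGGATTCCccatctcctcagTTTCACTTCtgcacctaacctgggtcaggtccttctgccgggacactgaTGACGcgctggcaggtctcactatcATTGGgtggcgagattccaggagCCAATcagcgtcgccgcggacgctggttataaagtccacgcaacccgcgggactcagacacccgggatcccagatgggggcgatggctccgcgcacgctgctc
H2-M3: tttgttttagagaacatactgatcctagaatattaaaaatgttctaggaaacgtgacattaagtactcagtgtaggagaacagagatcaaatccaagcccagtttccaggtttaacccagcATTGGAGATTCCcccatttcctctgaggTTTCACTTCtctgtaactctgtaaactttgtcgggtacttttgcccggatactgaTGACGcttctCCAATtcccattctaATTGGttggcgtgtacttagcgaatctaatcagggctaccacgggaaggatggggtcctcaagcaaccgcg
B2m: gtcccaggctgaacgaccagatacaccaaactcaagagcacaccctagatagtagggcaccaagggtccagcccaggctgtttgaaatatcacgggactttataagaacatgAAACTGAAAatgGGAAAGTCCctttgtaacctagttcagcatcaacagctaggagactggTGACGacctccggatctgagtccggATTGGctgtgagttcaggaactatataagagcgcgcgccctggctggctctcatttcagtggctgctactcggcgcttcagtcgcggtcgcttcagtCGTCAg
Pirb: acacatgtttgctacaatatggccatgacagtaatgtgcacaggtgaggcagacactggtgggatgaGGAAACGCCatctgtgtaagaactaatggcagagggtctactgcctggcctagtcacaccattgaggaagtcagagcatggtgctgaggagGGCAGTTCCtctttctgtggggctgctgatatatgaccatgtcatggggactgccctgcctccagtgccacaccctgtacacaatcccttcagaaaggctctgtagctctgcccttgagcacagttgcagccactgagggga

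The 3 heavy chain windows shown, which were picked for such elements, held the kappaB motif, the class I ISRE, the X2 core and a Y box. They held them in this order, as the map of motif matches shows. The class I ISRE was found in these 3 of 8 windows and in 0.522% of 27025 promoter windows of the same length. Its letters are by definition the form in class I heavy chain genes, so this count carries no test. The kappaB motif was found in 5 of 8 windows, those of H2-K1, H2-D1, H2-M3, B2m and Pirb, against 18.4% of all windows. This count depends on the letters searched: with a C added at the 3' end it was 4 of 8 against 5.66%, without Pirb. The general ISRE was found in 2 of 8 windows, those of B2m and H2-T23, and in 2893 of the 27025. The window of H2-T23, the heavy chain not shown, otherwise held 1 Y match and no kappaB, class I ISRE or X2 match. The short motifs are common, with the X2 core in 5 of 8 windows against 20.9% and the Y box in 7 of 8 against 38.0%. In H2-M3 the kappaB match overlaps a further Y match. The Pirb window held 2 kappaB matches and no match to the other motifs. H2-K1 and H2-D1 were the most alike pair of the 8 windows, with 60.4% identical columns in a global alignment, and the kappaB match begins at position -111 from the annotated start in H2-K1 and at position -171 in H2-D1. A match describes the letters of the window alone.

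**Figure D1:**
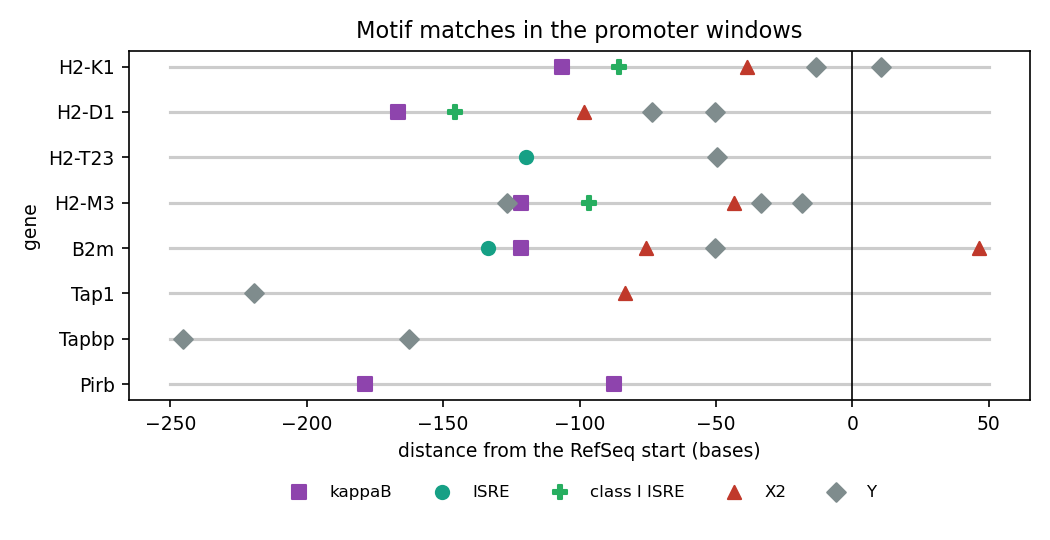
Motif matches in the promoter windows of 8 class I pathway genes, with the distance from the RefSeq start in bases on the horizontal axis and a row for each gene. Symbols mark the centre of each match; H2-K1, H2-D1 and H2-M3 share 1 order of motifs, and the Pirb row holds kappaB matches alone.

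The 4 arrays differed in ways that bear on every comparison below. Probes well above background made up 65.8% to 73.3% of probes per array, no spot was saturated, and DR2 and C2 shared a slide while the other two arrays each lay on a slide of their own. Xist was well above background in DR1 and C1 and not in the other two samples, a split that replicate number and the shared slide also give. The Y-linked gene Ddx3y was well above background in DR1, DR2 and C2 and not in C1, so that DR1 alone had signal from both genes. In the regional markers of the labelled tissue DR1 was often the lowest array and C1 the highest. Of 14 tested thalamus markers 8 were lowest in DR1 and 10 highest in C1. Of 13 tested hypothalamus markers 8 were lowest in DR1 and 9 highest in C1. Tcf7l2, a transcription factor of thalamic neurons, was at 0.85 in DR1, 2.34 in DR2, 2.93 in C1 and 1.46 in C2. Ramp3, at 0.94, 1.06, 3.34 and 1.06 on these arrays, and Rora, at 0.10, 0.19, 1.78 and 0.02, were high in C1 alone. Summed over the tested thalamus markers, signal relative to the 75th percentile was 18.3 and 65.2 in DR1 and DR2 and 75.6 and 25.5 in C1 and C2. Bright markers such as Zic1, at 5.07 in DR2, weigh most in this sum. DR2 was lowest in 9 of 10 oligodendrocyte markers. C2 was lowest in 6 of 10 meningeal and choroid plexus markers, whose sum was 12.1 there and 25.7 to 28.5 on the other arrays. These 6 were Ttr, Aqp1, Folr1, Kl, Clic6 and Dcn. The other 4, Col1a1, Col1a2, Col3a1 and Lum, were lowest in DR1.

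Rearing in darkness was not accompanied by a detected change in any class I pathway gene. None of the 8 tested genes passed in limma, in which 0 of 21420 genes passed (0%) at an adjusted p under 0.05 and 266 had an unadjusted p under 0.05. None of the 8 had groups that did not overlap, where 19.1% of all tested genes did (9.53% with both dark-reared samples above and 9.57% with both below). The median log2 difference of the 8 genes was 0.06, beside -0.0065 over all genes, and their median absolute difference was 0.10, beside 0.11. Dark-reared means were higher for 5 genes and lower for 3. Genes at least 2-fold apart without overlap made up 1.20% of all tested genes, and none of the 8 was among them. An exact two-sided permutation test of 2 samples against 2 cannot go below p = 0.333, and the number of arrays limits the precision of every interval below.

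**Figure D2:**
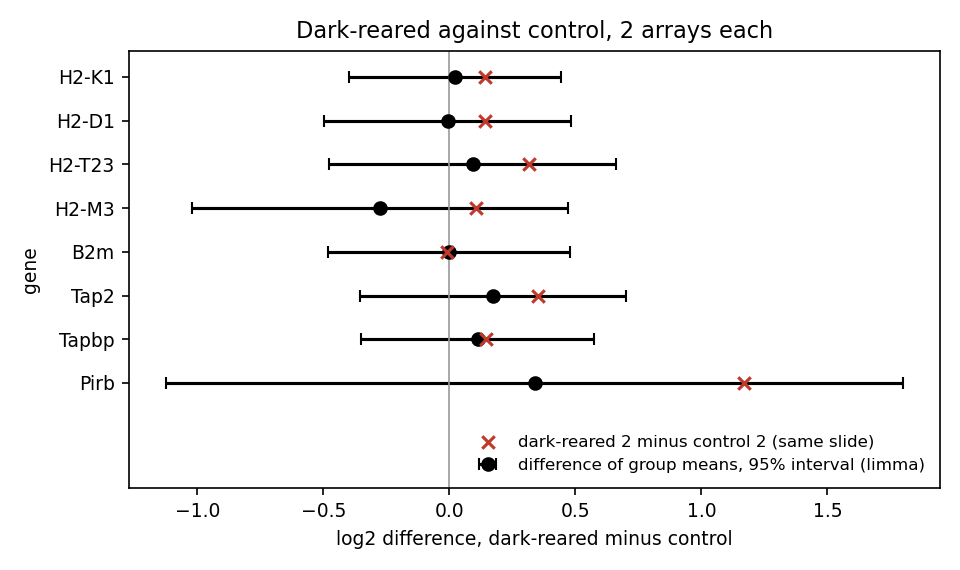
Log2 difference of dark-reared minus control for the 8 tested genes, with black dots for the difference of the group means of 2 arrays each, bars for the limma 95% interval and red crosses for DR2 minus C2 on their shared slide. Every interval covers 0, and the Pirb interval, from -1.12 to 1.80, is the widest of the 8.

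The classical heavy chain H2-K1, which presents peptides to cytotoxic T cells, varied little between the arrays on its brightest probe. Its brightest probe, printed in 10 spots, gave 0.96 in DR1, 1.05 in DR2, 1.05 in C1 and 0.91 in C2. The groups overlapped, and the whole range over the 4 arrays was 0.14, smaller than that of all but 8.64% of tested genes. The difference was 0.02 (limma standard error 0.15), with a 95% interval of -0.40 to 0.44 (adjusted p = 1.00). On a single array the 10 spots had an SD between 0.05 and 0.09. The other H2-K1 probes, of 1 spot each, differed by -0.02 (A_52_P474242) and 0.13 (A_52_P50496), with wider ranges of 0.22 and 0.32. The second of these was highest in DR2, at -2.01, with the other arrays between -2.32 and -2.26.

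H2-D1, the other classical heavy chain measured, gave 1.06 in DR1, 1.36 in DR2, 1.21 in C1 and 1.22 in C2. The control values lay close together and the dark-reared values lay on either side of them. The group means were therefore nearly equal, with a difference of -0.0073 and a 95% interval of -0.50 to 0.48 (limma adjusted p = 1.00), which turned to 0.025 with median scaling, 0.012 with quantile normalization and 0.014 with the deposited values. Its second probe repeated this order at 0.31, 0.64, 0.36 and 0.39. H2-K1, H2-D1 and the H2-Q genes are close relatives and probe sequences were not used here, so how much of a probe's signal comes from related transcripts is not known here.

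Of the nonclassical heavy chains, H2-T23 encodes Qa-1, a ligand of inhibitory receptors on natural killer cells. Like H2-D1 it was lowest in DR1 and highest in DR2, with 0.45 in DR1, 0.87 in DR2, 0.58 in C1 and 0.55 in C2. DR2 was thus the high sample, and the group difference of 0.09 (95% interval -0.48 to 0.66) was -0.12 without it. H2-M3, which presents peptides that begin with formylmethionine, differed the other way. It gave -3.06 in DR1, -2.43 in DR2, -2.40 in C1 and -2.54 in C2, so that DR1 alone was low. The difference of -0.28 (standard error 0.27, adjusted p = 1.00) turned to 0.038 without DR1 and was 0.11 within the shared slide. A second H2-M3 probe stayed too close to background on every array.

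B2m is needed by nearly all class I molecules to reach the cell surface and has a single gene outside the complex. Its brightest probe gave 2.42 in DR1, 2.62 in DR2, 2.42 in C1 and 2.63 in C2. The arrays of the shared slide were high and the other two low, in both groups, so that the difference was -0.0030 with a 95% interval of -0.48 to 0.48; with median scaling, quantile normalization and the deposited values it was 0.029, 0.016 and 0.017. A second B2m probe, printed in 10 spots, had the same split at 0.86, 1.06, 0.80 and 1.01. Its spots on a single array had an SD of 0.04 to 0.06. Both replicate 2 arrays lay above both replicate 1 arrays in 3 of 8 members (B2m, H2-D1 and Tapbp) and in 17.0% of all tested genes. The split was taken from B2m, which is itself counted, so the count carries no test. By probe it was 7 of 14, with some genes counted more than once. Tap2 had both replicate 2 arrays below both replicate 1 arrays, 1 of 8 beside 15.4% of all tested genes. Slide, replicate number and Xist signal cannot be told apart in this split.

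**Figure D3:**
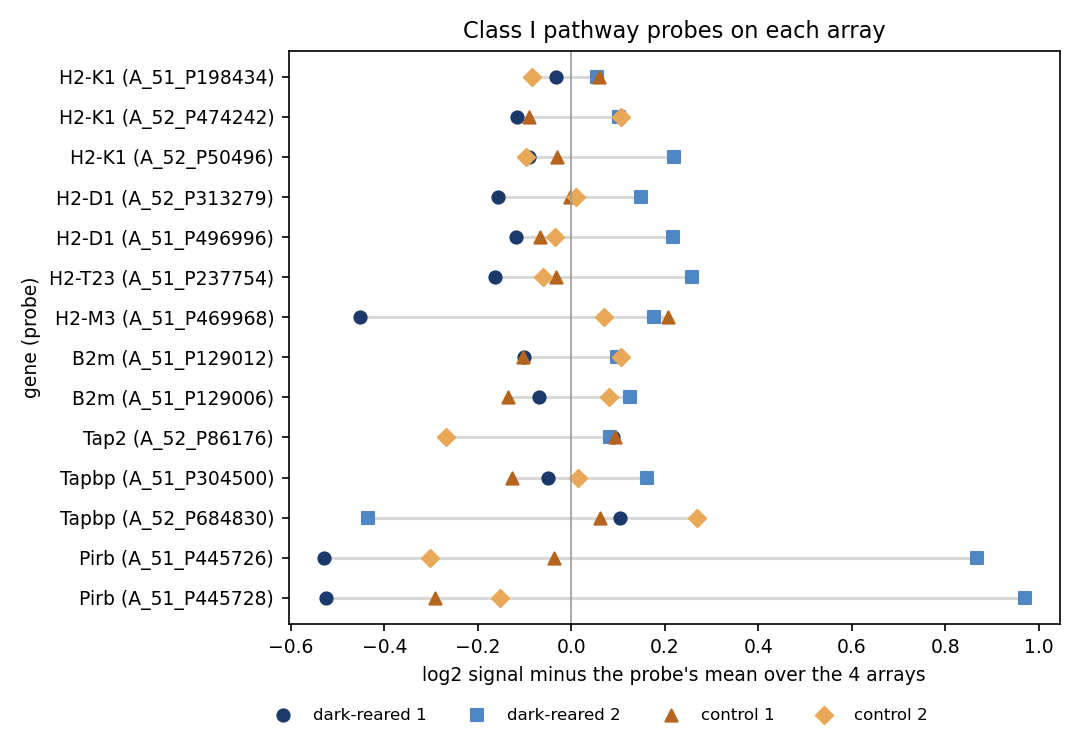
Log2 signal of each of the 14 class I pathway probes that were well above background on all 4 arrays, as the difference from the probe's own mean over the arrays, with a row for each probe and a symbol for each array. Most rows span under 0.5, and both Pirb rows place DR2 far to the right of the other arrays.

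The genes whose 4 values followed those of B2m most closely, by Euclidean distance between deviations from the 4-array mean among tested genes with a symbol, were Dus3l (0.0063), Rasa2 (0.02), Zcchc7 (0.03), Slc2a10 (0.03) and Svop (0.03). With 4 arrays such closeness is common: Tapbp, at a distance of 0.12, had 2.58% of named genes closer to B2m, and H2-D1, at 0.16, had 6.04%. The other members lay farther away, with H2-T23 at 0.25, H2-K1 at 0.26, Tap2 at 0.46, H2-M3 at 0.48 and Pirb at 0.97.

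Among the peptide transporter and its chaperone, Tap2 gave -3.40 in DR1, -3.40 in DR2, -3.39 in C1 and -3.75 in C2. Only C2 stood apart, on the low side, and the difference of 0.17 (95% interval -0.35 to 0.70, limma adjusted p = 1.00) turned to -0.0074 without that array and to -0.50 with normexp background correction. The Tap1 probe had processed signals of 7.62 and 11.9 in DR1 and DR2 and 6.46 and 10.9 in C1 and C2, each below the lowest signal called well above background on its array (21.3 to 35.0). No fold is given for Tap1, and its level could not be followed with this probe. Tapbp gave 1.61 and 1.82 in DR1 and DR2 and 1.53 and 1.67 in C1 and C2. The dark-reared sample of each replicate number was the higher one, yet the groups overlapped and the difference was 0.11 (95% interval -0.35 to 0.57). A dimmer Tapbp probe with another RefSeq accession disagreed in sign, at -0.33, and DR2 was its lowest array at -2.73.

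Pirb, an inhibitory receptor for class I molecules that is found on myeloid and B cells and has been described in neurons, had the widest spread of the 8 genes. It gave -3.41 in DR1, -2.01 in DR2, -2.92 in C1 and -3.18 in C2. DR2 was high and DR1 was the lowest of all, so the groups overlapped. A second probe had the same extremes, at -3.49, -2.0, -3.26 and -3.12, and the highest array exceeded the lowest 2.63-fold and 2.82-fold on the respective probes. The group difference of 0.34 (standard error 0.52) had a limma adjusted p of 1.00. It was 1.17 within the shared slide and turned to -0.36 without DR2. With normexp background correction it turned to -0.37 and C2 was the highest array, while with outlying local backgrounds replaced it was 0.14 and DR2 was highest again. Its range over the 4 arrays, 1.40, was wider than that of 91.6% of tested genes.

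A pair of granulocyte genes was also high in DR2. S100a8 and S100a9, which encode the subunits of calprotectin and are abundant in neutrophils, were at -0.02 and 1.88 in DR2. On the other arrays S100a8 lay between -4.34 and -3.31 and S100a9 between -1.88 and -0.79, and S100a8 was well above background on 3 arrays. Of 10 tested blood leukocyte markers 6 were highest in DR2, as were 28.9% of all tested genes, and their summed signal relative to the 75th percentile was 1.44 and 5.55 in DR1 and DR2 and 1.61 and 1.37 in C1 and C2. S100a8 and S100a9 made up most of the DR2 sum: without them the other 8 markers summed to 0.886 in DR1, 0.885 in DR2, 0.930 in C1 and 1.05 in C2, and 4 of them were highest and 3 lowest in DR2. Cd3d, Cd8a, Ms4a1 and Ncr1 did not pass the filter on dim probes. A list of 20 neutrophil genes was added after these values were seen and holds S100a8 and S100a9, so it is no separate evidence. Of its 18 genes with a probe 6 were tested. Besides that pair, Csf3r, Mpo and Prtn3 were highest in DR2, and Chil3 was lowest there, at -4.85. The remaining 12, among them Ngp, Camp, Ltf and Mmp8, did not pass the filter. None of 14 tested microglia markers was highest in DR2. Their summed signals were 41.2 and 33.4 in DR1 and DR2 and 29.5 and 43.9 in C1 and C2. For endothelial markers, of which 2 of 12 were highest in DR2, the sums were 40.9, 34.1, 37.1 and 41.2 in that order. Of 8 pan-neuronal markers 3 were highest in DR2, with sums of 143 and 168 in DR1 and DR2 and 190 and 147 in C1 and C2. The part of these cells in the Pirb values was not tested.

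**Figure D4:**
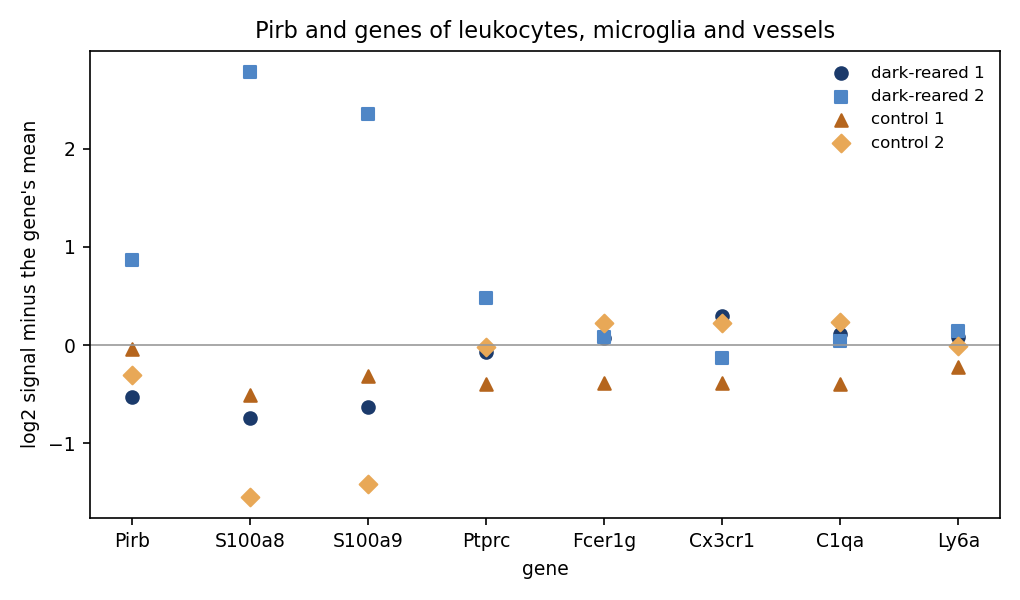
Log2 signal of Pirb and 7 other genes on each array, as the difference from the gene's mean over the 4 arrays. The genes were chosen after their values were seen; Pirb, S100a8, S100a9 and Ptprc are highest in DR2, and the microglial genes Cx3cr1 and C1qa are not.

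The wider family of heavy chains often had the lowest and highest arrays of H2-D1 and H2-T23. Together with the 4 members, 14 heavy chain genes were tested, and 9 of them were highest in DR2 and lowest in DR1, an order found in 14.8% of all tested genes. These 9 include H2-D1 and H2-T23, from which the order was taken. The others were H2-K2, H2-Q2, H2-Q4, H2-Q7, H2-Q8, H2-Q10 and H2-Bl. The order was picked after the values were seen, the genes are close relatives whose probes may share signal, and the count carries no test. DR2 exceeded DR1 in 12 of the 14, by a median of 0.35, where the median over all genes was 4.1e-05. Cell type markers also moved between these arrays. From DR1 to DR2 the summed oligodendrocyte markers went from 458 to 120, the hypothalamus markers from 45.2 to 100.5 and the thalamus markers from 18.3 to 65.2. Not every thalamus marker moved, with Ramp3 at 0.94 in DR1 and 1.06 in DR2. The part of these markers in the gap between DR1 and DR2 was not tested. Between the controls the median was -0.03, and C2 was the higher in 6 of the 14. Over 6 other sets of values the median gap between dark-reared samples ran from 0.25 to 0.38 and was above 0 in 12 or 13 of the 14, while the count of 9 ran from 5, with normexp background correction, to 10. Among the exceptions, H2-T22 was highest in C1, and H2-M10.2 was at -7.19 in DR2, where it was not well above background.

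**Figure D5:**
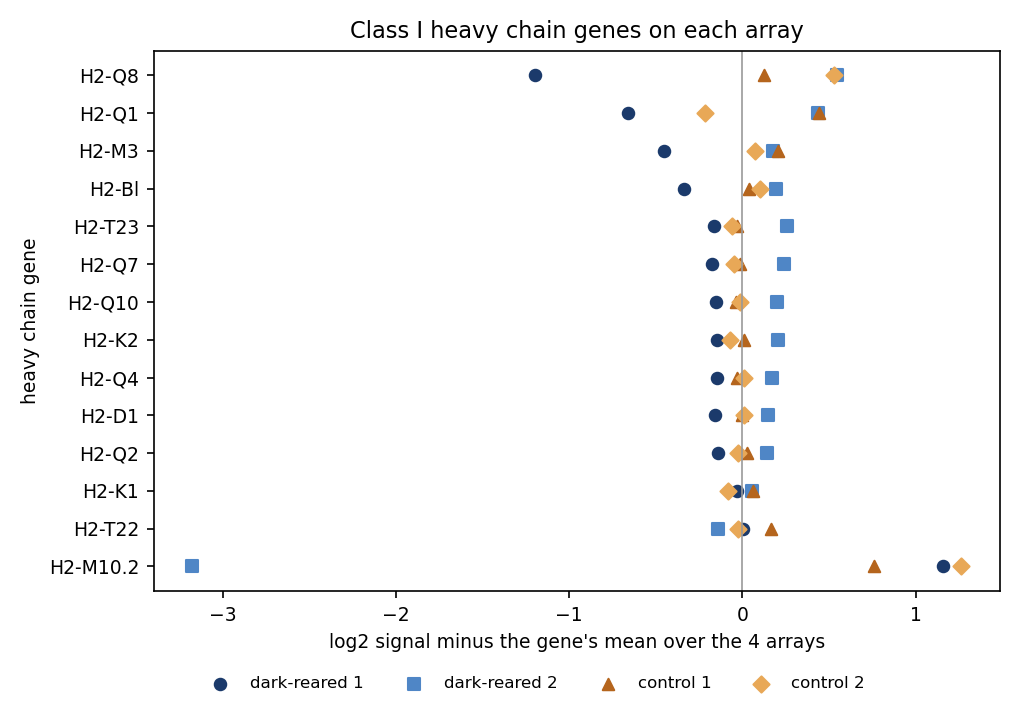
Log2 signal of 14 class I heavy chain genes on each array, as the difference from the gene's mean over the 4 arrays, ordered by the gap between the dark-reared samples. DR2 lies right of DR1 in all rows but those of H2-T22 and H2-M10.2.

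The list of other heavy chains and class I-like molecules split both ways between the groups. Of 35 genes listed, 25 had a named probe and 16 were tested, with 9 higher, 7 lower, 0 past the adjusted threshold and a median difference of 0.04. H2-M10.2 has only a bound in DR2, and no difference is given for it. Hfe, at 0.21, Fcgrt, at 0.13, and Procr, at 0.10, had both dark-reared values above both controls, and Azgp1 had them below, so that 4 of 16 did not overlap beside the 19.1% of all tested genes. Azgp1, which encodes a class I-like secreted protein, was -0.79 apart (standard error 0.19) and did not pass in limma (adjusted p = 1.00). H2-Q8 differed by -0.65 and H2-Q1 by -0.22, both with DR1 as the lowest array.

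None of the tested genes that make and load peptides differed by more than 0.26 in either direction. All 9 tested genes of the peptide loading and trimming list had differences between -0.22 and 0.05, with 3 higher, 6 lower and 0 called. Calr, the chaperone calreticulin, differed by -0.09, and Erap1, the aminopeptidase that trims class I peptides, by -0.22. Pdia6 and Hspa5, folding factors of the endoplasmic reticulum, had both dark-reared values below both controls, at -0.17 and -0.12, without passing. Sec61a1, a subunit of the translocation channel, had them above, at 0.047, so that 3 of 9 did not overlap beside the 19.1% of all tested genes. Tapbpl, a tapasin relative, differed by -0.04 and was at -1.53 in DR2 and -2.20 in DR1. Pdia3, a partner of tapasin, had no named probe. All 5 immunoproteasome and activator genes were tested, 3 higher and 2 lower with 0 called and a median difference of 0.04, and 4 of the 5 were highest in DR2, as were 28.9% of all tested genes. Psmb8 differed by 0.26 (standard error 0.25), Psmb9 by 0.21 (standard error 0.25), Psmb10 by -0.23 (standard error 0.37) and Psme2 by 0.04 (standard error 0.18).

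Regulators of class I transcription did not pass either. Of 16 tested genes 9 were higher and 7 lower, with a median difference of 0.02 and 0 called. Nlrc5, the transactivator of class I genes, differed by -0.20 (standard error 0.33) and was well above background on 3 arrays. Irf1, which carries interferon signals to class I promoters, differed by 0.08. Rfxank differed by -0.19 and Nfyb by 0.16. Of 23 tested interferon-stimulated genes 16 were higher and 7 lower with a median of 0.09 and 0 called, and 4 had each dark-reared value above each control value, beside the 9.53% of all tested genes given above. In 1 gene, Igtp, at -0.14, both lay below, beside 9.57%. Ifitm3, an antiviral membrane protein gene, was 1 of the 4 and had the largest difference among them, at 0.51 (standard error 0.27). Ifi44, at 0.77, and Iigp1, at 0.58, had groups that overlapped. Ifi44 was well above background on 3 arrays, so its difference rests in part on a value near background. Oas1a, whose groups also overlapped, was well above background on 2 arrays, those of the dark-reared group through which it passed the filter. Its control values are therefore bounds, and no difference is given for it. Ifi44 and Oas1a are both among the 16. Of 5 tested class II genes 2 were higher and 3 lower, with H2-Oa at -0.24, H2-DMb1 at 0.22, H2-DMa at 0.10 and Cd74 at -0.08.

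Receptors other than Pirb were mostly below detection. Of 31 receptor and signalling genes listed, 22 had a named probe and 4 were tested. Cd247, the CD3 zeta chain, was among the 18 that did not pass the filter. Cd3e, a T cell receptor chain, was -1.76 apart (standard error 0.30) with no overlap and did not pass in limma (adjusted p = 1.00). Fcer1g, the adaptor of activating myeloid receptors, differed by 0.15, and the phosphatases Ptpn6 and Ptpn11, which inhibitory receptors recruit, by 0.23 and -0.03. The myelin-associated Pirb ligands and Nogo receptor genes were all tested, with 4 of 9 higher, 5 lower and 0 called. Mag, a myelin glycoprotein, gave 6.43, 4.47, 6.67 and 5.73 on the arrays DR1, DR2, C1 and C2, which is -0.75 between the groups (standard error 0.79). Oligodendrocyte markers moved with it: 9 of 10 were lowest in DR2, and their part in the Mag values was not tested. Rtn4, which encodes Nogo, differed by 0.02, Omg by -0.24, Rtn4rl2 by -0.15 and Ngfr by -0.30.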

How the data were processed

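Total RNA was measured on one-colour (Cy3) Agilent arrays, 1 array per sample. Per the file headers, the authors deposited spot intensities from version 10.7.3.1 of Agilent's Feature Extraction, in which the processed signal is background-subtracted within an array and not scaled between arrays. They also deposited log2 values per probe, with a median of 6.84 on every array; the labels do not say how these were normalized, and they served as an alternative.

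Outlier spots were left out, spots of a probe averaged, and each array's 75th percentile over probes subtracted on the log2 scale. RefSeq accessions gave 26918 of 41174 probes a symbol, from a table of assembly GRCm38.p6. The array annotation refers to mm9. A probe was kept where both arrays of some group had it well above background, and the brightest stood for its gene. The group test was limma 3.58.1's moderated test (R 4.3.3), two-sided, with Benjamini-Hochberg adjustment across 21420 genes and a threshold of 0.05. The fit was tested on simulated data.

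The members, the gene lists and the settings were chosen with earlier results of these data known. Named are all members with all probes, the 4 tested genes of a pathway list with the largest absolute difference, a few genes in every case (Calr, Pdia3, Tapbpl, Erap1, Psmb8, Psmb9, Nlrc5, Irf1, Cd247, Fcer1g, Rtn4, Mag), and the 5 genes closest to B2m; 1 gene that this rule names is not reported here. Markers are given where a result turns on them. Same-numbered arrays did not deviate together (correlation -0.16), so the replicate number was a block only in an alternative. The signal over background and the number of arrays limit the precision. The normexp alternative used median spot signals, since the files analysed hold no mean spot signal. The letters of the 3 longer promoter motifs were shortened by 1 base after a first search, and the longer kappaB form is given beside the shorter. Another 20 neutrophil genes were listed after values had been seen.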

Additional observations from a re-analysis of the deposited data

How the results depend on the processing

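No gene was called in limma under any of the 18 fits, and the members' adjusted p ran from 0.70, for Pirb, to 1.00. The median difference of the members, 0.06, ran from -0.11 to 0.16 when 1 array was left out, and was negative without dark-reared 2. Members without overlap numbered 0 of 8, beside 4091 of all 21420 tested genes. Tap2 made it 1 with median scaling, quantile normalization or the deposited values, beside 4289, 4124 and 4108 of all tested genes. Normexp on median signals gave 3 of 8, beside 5003 of 21420. Leaving out 1 array, which eases the criterion, gave 3 to 5 of 8, beside 10591 to 14021 of 21420. Genes at least 2-fold apart without overlap numbered 257, against 151 with normexp, 23 with normexp after outlying local backgrounds were replaced, 810 without the filter, 78 with the filter on all 4 arrays and 528 to 884 with 1 array left out.

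B2m (-0.0030) turned to 0.029 with median scaling, 0.016 with quantile normalization, 0.017 with the deposited values, 0.12 with normexp, and 0.027 when its probes were averaged or tested apart. H2-D1 (-0.0073) turned to 0.025, 0.012, 0.014 and 0.077 with median scaling, quantile normalization, the deposited values and normexp, to 0.046 with its probes averaged or tested apart and to 0.14 within the shared slide, where H2-M3 turned to 0.11. With normexp Pirb turned to -0.37 and Tap2 to -0.50, and H2-M3 went from -0.28 to -0.56 with groups that did not overlap. Control 2 has a local background of up to 15855.5. With outlying backgrounds replaced Pirb was 0.14, Tap2 0.050, H2-M3 -0.19, B2m -0.019 and H2-D1 -0.0086. The cause of these changes was not tested. Tapbp turned to -0.11 when its probes were averaged or tested apart. With 1 array left out B2m ran from -0.11 to 0.10, H2-D1 from -0.16 to 0.15, H2-K1 from -0.048 to 0.10, H2-M3 from -0.59 to 0.038, H2-T23 from -0.12 to 0.30, Pirb from -0.36 to 1.04, Tap2 from -0.0074 to 0.35 and Tapbp from 0.0065 to 0.22.

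With the replicate number as a block 0 genes were called, 271 had an unadjusted p under 0.05, and no member's call changed. The crossed pairing, added after the data were seen, gave 0 calls and 433. Signal over background limits Tap1, Nlrc5, most receptor genes and the dim members Pirb, Tap2 and H2-M3.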
